A study of Mus musculus with 6 samples.

Results

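The transcription factors that give hepatocytes their identity were followed through 4 months of alcohol feeding in mouse liver. The group holds 10 genes: the forkhead factors Foxa1, Foxa2 and Foxa3, the nuclear receptors Hnf4a and Nr5a2, the C/EBP factors Cebpa and Cebpb, the cut-homeodomain factor Onecut1, the homeodomain factor Prox1 and the zinc finger factor Gata4. Members were found as the probes whose gene name on the array was one of these symbols, which gave 18 of the 41174 different probes measured. Male 129/Sv mice, 6 to 8 weeks old at the start, were first accustomed to the control liquid diet and then took, with free access, either a Lieber-DeCarli liquid diet with 4% ethanol or an isocaloric control diet in which maltose dextran replaced the ethanol. Liver RNA of 6 mice was pooled for each diet after 1, 2 and 4 months, which gave 6 pools. Each month's alcohol and control pools were hybridized together on 2 two-color arrays with the Cy5 and Cy3 dyes exchanged, so the pair of arrays shows technical spread alone. With 1 pool per diet at each time the spread between mice is not measured, and the 3 months served as the replicates of every test.

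These factors work as a network. FOXA proteins open closed chromatin, HNF4A and the C/EBP proteins then hold the genes for plasma proteins, urea cycle enzymes and gluconeogenic enzymes active, and most of the factors bind one another's promoters and enhancers. In adult liver, CEBPA is linked to the quiescent, metabolically active hepatocyte and CEBPB to the acute phase, fasting and regenerating liver. NR5A2 drives bile acid and cholesterol genes, ONECUT1 and GATA4 act early in liver development and remain in the adult organ, and PROX1 is a partner and repressor of nuclear receptors. In whole liver, fewer cells of a type and less RNA per cell cannot be told apart.

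After 2 and 4 months of alcohol, Foxa2 was lower in the alcohol pool, while Cebpb averaged above the control pool and Cebpa and Nr5a2 below it. By their brighter probes the Cebpb and Cebpa ratios were within the spread of their arrays. Foxa2 was 1.38-fold lower at 2 months and 2.01-fold lower at 4 months. Hnf4a, Foxa1, Foxa3, Onecut1, Prox1 and Gata4 had averaged log2 ratios between -0.20 and 0.20 at all 3 months by their brightest probes. None of the 10 genes passed the test across the months after adjustment for all probes.

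The upstream windows of Foxa2, Cebpb and Cebpa are shown because, taking each gene by any of its probes, these 3 members had the averaged log2 ratios farthest from 0 at 2 or 4 months. Each is the 250 bases before the most upstream gene start in the RefSeq table of the assembly GRCm38.p6, where 9 of the 10 members, all but Gata4, were matched. Foxa2 lies on the minus strand at chr2:148046970-148047219, Cebpb on the plus strand at chr2:167688665-167688914 and Cebpa on the plus strand at chr7:35119043-35119292. Capitals mark matches on either strand to motifs searched by letters: FOXA TGTTTNC, C/EBP TTGCNNAA, HNF4 CAAAGTCCA, the ONECUT factors ATTGAT, the GATA factors AGATAA, NR5A2 AAGGTCA, the cAMP response half-site TGACG and the core promoter box TATAAA.
Foxa2: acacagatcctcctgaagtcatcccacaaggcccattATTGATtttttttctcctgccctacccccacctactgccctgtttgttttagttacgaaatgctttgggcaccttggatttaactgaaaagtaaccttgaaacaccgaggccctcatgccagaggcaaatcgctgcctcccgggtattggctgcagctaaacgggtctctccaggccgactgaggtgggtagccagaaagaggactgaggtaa
Cebpb: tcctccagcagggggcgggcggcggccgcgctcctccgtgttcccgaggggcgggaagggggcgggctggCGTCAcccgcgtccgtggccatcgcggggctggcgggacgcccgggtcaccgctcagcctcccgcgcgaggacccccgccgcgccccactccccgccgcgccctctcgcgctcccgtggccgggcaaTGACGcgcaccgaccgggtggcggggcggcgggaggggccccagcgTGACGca
Cebpa: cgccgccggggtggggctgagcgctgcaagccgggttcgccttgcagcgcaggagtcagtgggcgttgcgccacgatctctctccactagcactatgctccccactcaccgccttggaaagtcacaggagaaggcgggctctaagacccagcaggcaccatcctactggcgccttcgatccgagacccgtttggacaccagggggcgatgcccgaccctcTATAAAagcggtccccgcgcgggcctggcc

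The Foxa2 window held 1 ONECUT match, which began 213 bases before the start, and 6.72% of all 32851 windows of this length held that motif. ONECUT1 is a known activator of Foxa2 in the developing liver. The Cebpb window held 3 cAMP response half-sites, beginning 180, 53 and 7 bases before the start, and 17.8% of all windows held at least 1. Cebpb is known as a gene that cAMP induces. The Cebpa window held the match TATAAA beginning 30 bases before the start, a motif found in 12.4% of windows. No matches overlapped in these windows, whose GC content was 50.8% for Foxa2, 81.6% for Cebpb and 66.4% for Cebpa against a median of 52.4% over all windows. A match describes letters and not a bound site.

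All 18 member probes were well above background in all 12 channels and none was saturated. A log2 ratio is given as alcohol over control, so that 0 is no difference and -1 is a 2-fold lower level in the alcohol pool. A gene was called as changed within a month at a 2-fold average over the 2 arrays with a p below 0.05 from the scanner software's error model, which is a technical filter and not a test across mice. This call was met by 0 of the 10 leading member probes at 1 month, 0 at 2 months and 1 at 4 months, where the leading probe is the brightest of a gene. Over the 37922 probes that passed the background flag in any channel, 0.224%, 0.311% and 0.662% were called at 1, 2 and 4 months. The 1 member called was Foxa2 at 4 months, and 0.295% of all probes were called as lowered there. Its averaged log2 ratio of -1.01 lay just past the threshold of -1, and it was -0.998 in the authors' own table of log ratios, just short of it.

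**Figure D1:**
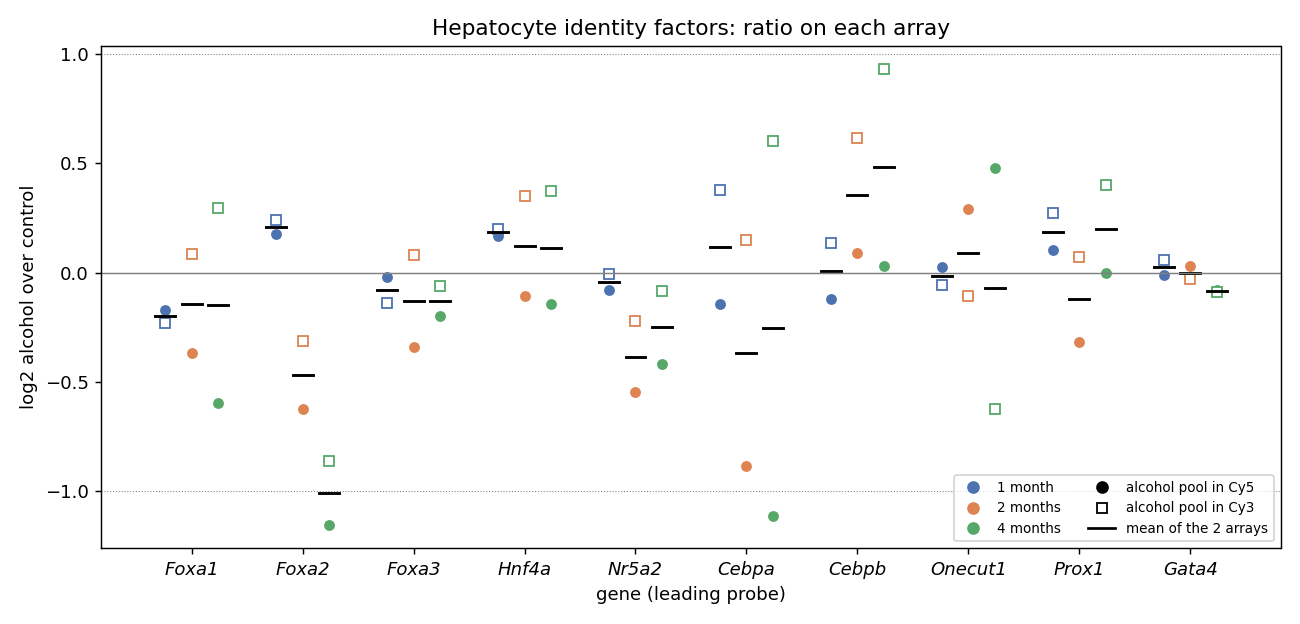
Log2 alcohol over control (vertical axis) of the leading probe of each of the 10 genes (horizontal axis) on each of the 6 arrays, colored by month, with filled circles for the array with the alcohol pool in Cy5, open squares for the array with it in Cy3 and black bars for their mean. Dotted lines mark 2-fold; Foxa2 goes from a mean of 0.21 at 1 month to -1.01 at 4 months, and the 2 arrays of Cebpa at 4 months lie on opposite sides of 0.

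Among the forkhead factors Foxa2 stood farthest from 0. With alcohol in Cy5 and in Cy3, Foxa2 had a log2 ratio of 0.18 and 0.24 at 1 month, of -0.62 and -0.32 after 2 months and of -1.16 and -0.86 after 4 months. Both arrays thus lay above 0 at 1 month and below 0 at the later months, and the 3 months did not overlap. The averages were 0.21 ± 0.04, -0.47 ± 0.22 and -1.01 ± 0.21 (SD, n = 2 arrays of the same pools). The Foxa2 probe was printed 10 times on each array, and the SD among its 10 spots was between 0.03 and 0.06 log2.

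Over the 3 months the Foxa2 log2 ratio averaged -0.42 ± 0.61 (SD, n = 3 months), with a limma adjusted p of 0.670 for a difference from 0. Its slope on the log2 of the month was -0.61 per doubling of time (SE 0.08), with an unadjusted limma p of 0.0015 and an adjusted p of 0.616. With normexp background correction and loess in place of the scanner software's processing the slope was -0.60 and the limma adjusted p 0.0447, so the trend passed the threshold under that processing, where 50 of the 37922 probes (0.132%) did, and not under the deposited ratios. The arrays of the first month had a slide of their own and the later ones shared a second, and slide and time cannot be told apart in that slope. Within the slide of 2 and 4 months the Foxa2 log2 ratio averaged -0.74, and it was more negative at 4 than at 2 months.

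Foxa1, whose product overlaps with FOXA2 in function, had averages of -0.20 ± 0.04, -0.14 ± 0.32 and -0.15 ± 0.63 (SD, n = 2 arrays). In the order Cy5 and Cy3 for the alcohol pool, its arrays read -0.17 and -0.23 in month 1, -0.37 and 0.08 in month 2, and -0.59 and 0.29 in month 4. The ratio was thus beyond the spread of its arrays at 1 month and within it later. Foxa3, a forkhead factor linked to glucose supply in fasting, gave -0.02 and -0.14, then -0.34 and 0.08, then -0.20 and -0.06. Its averages of -0.08, -0.13 and -0.13 stayed close to 0. The mean over the months was -0.16 for Foxa1 and -0.11 for Foxa3, with limma adjusted p of 0.620 and 0.655.

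The C/EBP factors had averages of opposite sign at 2 and 4 months. Cebpb had 2 probes. The brighter, A_52_P605846, gave -0.12 and 0.13 in month 1, 0.09 and 0.62 in month 2, and 0.03 and 0.93 in month 4. The other, A_52_P63553, gave 0.03 and -0.01 in month 1, 0.23 and 0.56 in month 2, and 0.48 and 1.12 in month 4. Both probes lay near 0 at 1 month and above 0 on all 4 later arrays, and in months 2 and 4 the array with alcohol in Cy3 was the higher of the pair by either probe.

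Cebpb averages by the brighter probe were 0.01 ± 0.18, 0.35 ± 0.37 and 0.48 ± 0.64, and by the other 0.01 ± 0.03, 0.39 ± 0.24 and 0.80 ± 0.45 (SD, n = 2 arrays). Only the second probe exceeded the spread of its arrays at 2 and 4 months, where it was 1.31-fold and 1.74-fold of control. The slope per doubling of time was 0.24 (SE 0.08) for the brighter probe and 0.40 (SE 0.08) for the other, with limma adjusted p of 0.672 and 0.627. The mean over the months was 0.28 and 0.40, both with a limma adjusted p of 0.620.

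Cebpa also had 2 probes. The brighter, A_51_P214087, gave -0.14 and 0.38 in month 1, -0.88 and 0.15 in month 2, and -1.11 and 0.60 in month 4. Its sign followed the dye at every month, so its averages of 0.12 ± 0.37, -0.37 ± 0.73 and -0.26 ± 1.21 were all within the spread of the pair. The dimmer probe, A_52_P168567, gave 0.06 and 0.07 in month 1, -0.53 and -0.36 in month 2, and -0.58 and -0.20 in month 4. By this probe, which was less affected by the dye, Cebpa was 1.36-fold lower at 2 months and 1.31-fold lower at 4 months, with averages of -0.44 ± 0.12 and -0.39 ± 0.27 beyond the spread of its arrays. The limma adjusted p for the mean over the months was 0.714 for the brighter probe and 0.632 for the dimmer.

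The difference between Cebpb and Cebpa within an array sets the growth-linked member of the family against the quiescence-linked one. By the brighter probes the Cebpb log2 ratio minus the Cebpa log2 ratio was 0.02 and -0.24 in month 1, 0.97 and 0.47 in month 2, and 1.14 and 0.33 in month 4. By the other probes it was -0.03 and -0.08, then 0.75 and 0.92, then 1.06 and 1.33. All 4 later arrays lay above both arrays of 1 month with either pair of probes. Averages were -0.11, 0.72 and 0.74 with the brighter probes and -0.06, 0.84 and 1.20 with the others, and these differences were not tested.

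Of the nuclear receptors, Nr5a2 was the one member below 0 on all 6 arrays. It gave -0.08 and -0.01 in month 1, -0.55 and -0.22 in month 2, and -0.42 and -0.08 in month 4. The values of 1 month were the closest to 0. Its averages were -0.04 ± 0.05, -0.39 ± 0.23 and -0.25 ± 0.24 (SD, n = 2 arrays), a 1.31-fold lower level at 2 months and a 1.19-fold lower level at 4 months. The mean over the months was -0.23 (SE 0.09), with an unadjusted limma p of 0.049 and an adjusted p of 0.620. The same sign on all 6 arrays was met by 1 of the 10 leading probes, against 4.29% of the 27898 probes that passed the background flag in all 12 channels, so the share is not read as a result about the group.

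Hnf4a, which many hepatocyte genes need for their expression, was measured by 3 probes. The brightest gave 0.17 and 0.20 in month 1, -0.11 and 0.35 in month 2, and -0.14 and 0.37 in month 4. Averages were 0.18 ± 0.02, 0.12 ± 0.33 and 0.11 ± 0.36 (SD, n = 2 arrays), beyond the spread of the arrays at 1 month and within it later. The other probes averaged 0.16 and -0.02 in month 1, 0.10 and 0.07 in month 2, and 0.04 and 0.07 in month 4. All 9 averages lay between -0.02 and 0.18, and the limma adjusted p of the brightest probe was 0.623.

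Onecut1, Prox1 and Gata4 gave no steady direction. The brighter Onecut1 probe gave 0.02 and -0.06, then 0.29 and -0.11, then 0.48 and -0.62, so its sign followed the dye at every month, in the opposite sense to Cebpa. The dimmer Onecut1 probe gave 0.25 and 0.33 in month 1, -0.13 and 0.10 in month 2, and -0.17 and -0.04 in month 4. Its averages of 0.29, -0.02 and -0.11 went from above to below 0, with a limma adjusted p of 0.726 for the slope. The brightest Prox1 probe averaged 0.19 ± 0.12, -0.12 ± 0.27 and 0.20 ± 0.28 (SD, n = 2 arrays), and all 3 Prox1 probes lay above 0 at 1 and 4 months and below 0 at 2 months on average.

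Gata4 averaged 0.02, 0.00 and -0.08 by its brighter probe, whose arrays of 4 months were -0.08 and -0.09. The second Gata4 probe, the dimmest of the 18, was printed 10 times and gave -0.57 and 1.06 on the arrays of 4 months, with an SD among spots of 0.14 and 0.06. The spots of one array thus lay close together while the ratio differed between the dye orientations by more than any average. The limma adjusted p for the mean over the months was 0.999 for Onecut1, 0.806 for Prox1 and 0.944 for Gata4 by their leading probes.

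The dye was a large part of the single-array values in this group. The difference between the 2 arrays divided by 2, which is the part that follows the dye, had a median size over the 10 leading probes of 0.04, 0.20 and 0.23 log2 in months 1, 2 and 4. The averaged ratio had a median size of 0.10, 0.14 and 0.17. Over the 27898 probes well above background throughout, the dye part was 0.09, 0.17 and 0.20 and the averaged ratio 0.08, 0.09 and 0.10. The sign was the same on both arrays for 6 of the 10 leading probes at 1 month, 3 at 2 months and 5 at 4 months, against 48.2%, 34.5% and 30.1% of those probes. On all 4 arrays of 2 and 4 months the sign was the same for 3 of 10, namely Foxa2, Cebpb and Nr5a2, against 13.1%.

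**Figure D2:**
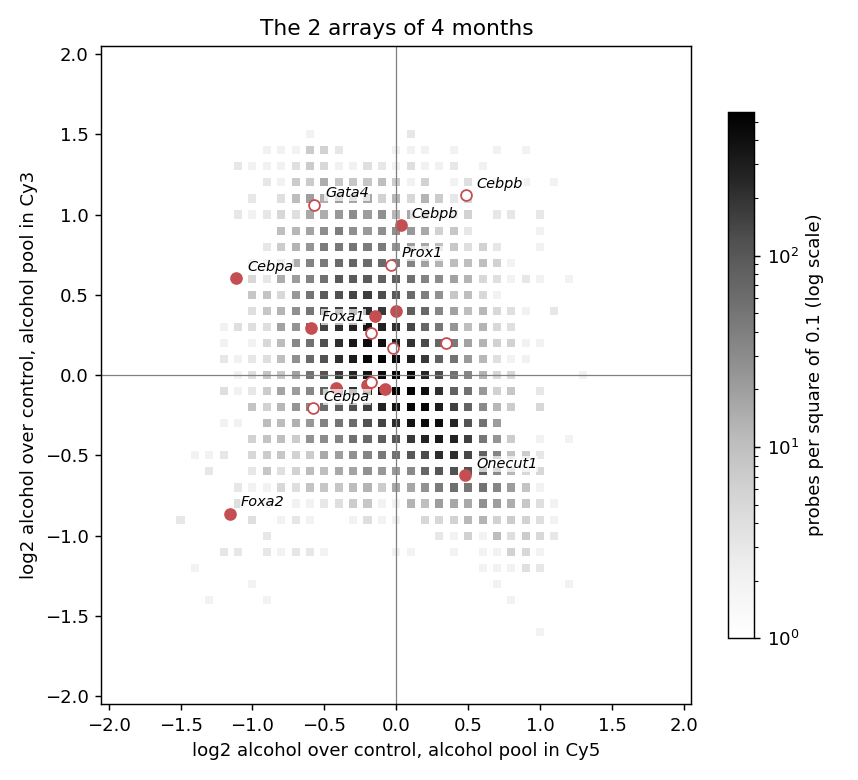
Log2 alcohol over control on the 4-month array with alcohol in Cy5 (horizontal axis) against the array with alcohol in Cy3 (vertical axis). Grey squares give the number of probes well above background in each square of 0.1 log2, red filled circles the leading probe of each member and open circles its other probes, with names for those beyond 0.45 on either axis and 31 probes beyond the axes not drawn; Foxa2 lies at -1.16 and -0.86, in the lower left corner where few probes lie, and Cebpa at -1.11 and 0.60, where the sign changes with the dye.

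In the tests across the months, 0 of the 10 leading probes passed at an adjusted p of 0.05 for the mean or for the slope. Over all 37922 probes limma likewise called 0 (0%) for the mean and 0 (0%) for the slope. At an unadjusted p under 0.05 limma gave 2 of the 10 leading probes for the mean, Foxa1 and Nr5a2, against 7.98% of all probes, and 2 for the slope, Foxa2 and Cebpb, against 7.42%. The lowest adjusted p over all probes was 0.106 for the mean and 0.616 for the slope. The median log2 ratio of the 10 leading probes was 0.02, -0.13 and -0.11 at 1, 2 and 4 months, beside 0.00, 0.01 and -0.01 over all probes tested.

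Levels in the single pools set the 2 sides of each ratio apart. A level is the log2 signal of a pool minus the 75th percentile of its channel, averaged over both dyes, and it is compared only within a gene. Foxa2 in the control pools of months 1, 2 and 4 was -0.25 ± 0.15, 0.63 ± 0.04 and 0.34 ± 0.33 (SD, n = 2 channels). In the alcohol pools it was -0.05 ± 0.10, 0.16 ± 0.18 and -0.67 ± 0.12. The order from high to low was control at 2 months, control at 4 months, alcohol at 2 months, alcohol at 1 month, control at 1 month and alcohol at 4 months. Only control at 4 months and alcohol at 2 months, neighbors in that order, did not differ beyond their spread. The alcohol pool of 4 months thus held the lowest Foxa2 level of all 6 pools, with a log2 difference of -0.83 from the alcohol pool of 2 months, while the control pools of the same months differed by -0.29.

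**Figure D3:**
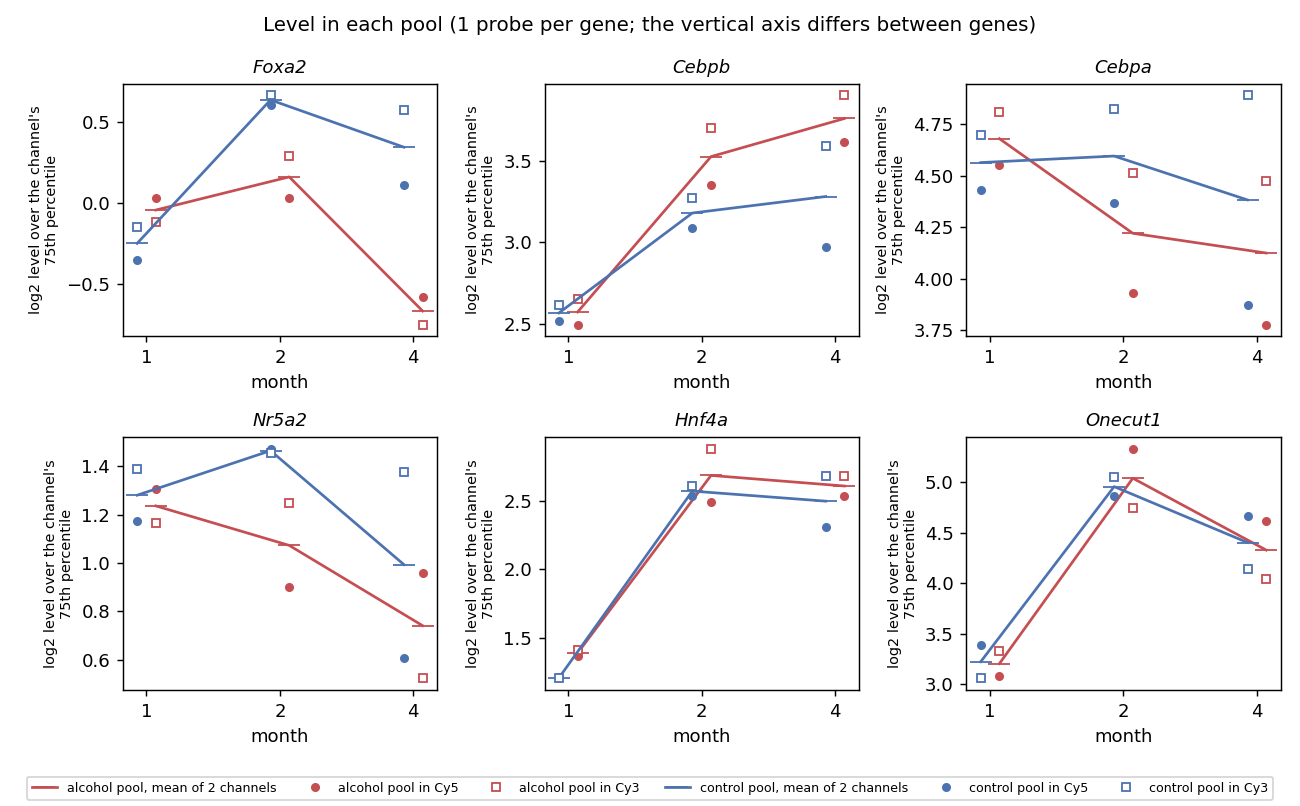
Level of 6 members (log2 signal over the 75th percentile of the channel, vertical axis, with a different range for each gene) by month (horizontal axis) in the alcohol pools (red) and control pools (blue); filled circles are the Cy5 channel, open squares the Cy3 channel and lines join their means. Foxa2 in the alcohol pool of 4 months lies at -0.67, below all other pools, whereas the Onecut1 lines of both diets lie within their spread at each month and the Hnf4a lines do so at 2 and 4 months.

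Cebpb was at 2.57 ± 0.07, 3.18 ± 0.13 and 3.28 ± 0.43 in the control pools and at 2.57 ± 0.11, 3.53 ± 0.25 and 3.76 ± 0.20 in the alcohol pools of 1, 2 and 4 months. The order was alcohol at 4 months, alcohol at 2 months, control at 4 months, control at 2 months, alcohol at 1 month and control at 1 month. In that order alcohol at 2 months and control at 4 months, the controls of 4 and 2 months, and the pools of 1 month did not differ beyond their spread. Between the diets of one month the Cebpb level differed by 0.35 at 2 months and 0.48 at 4 months, both beyond the spread of the channels (pooled SD 0.20 and 0.34), while the ratios of this probe were within the spread of their arrays. Both diets were higher at 2 and 4 months than at 1 month, which lies on another slide.

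Cebpa in its brighter probe was at 4.56 ± 0.19, 4.60 ± 0.32 and 4.38 ± 0.72 in the control pools and at 4.68 ± 0.18, 4.22 ± 0.41 and 4.12 ± 0.49 in the alcohol pools. No neighbors in the order of these 6 levels differed beyond their spread, and the control pool of 4 months minus that of 2 months, -0.21, was 0.40 after quantile normalization across channels. The dimmer Cebpa probe was at 2.68 ± 0.11, 1.86 ± 0.0049 and 1.74 ± 0.24 with control diet and at 2.74 ± 0.11, 1.42 ± 0.12 and 1.34 ± 0.02 with alcohol. By this probe the pools of 1 month were the highest, the controls of 2 and 4 months came next and the alcohol pools of 2 and 4 months were the lowest, with steps beyond the spread between these 3 pairs and none within them. Nr5a2 was at 1.28 ± 0.15, 1.46 ± 0.01 and 0.99 ± 0.54 with control diet and at 1.24 ± 0.10, 1.07 ± 0.25 and 0.74 ± 0.31 with alcohol. Its order was control at 2 months, control at 1 month, alcohol at 1 month, alcohol at 2 months, control at 4 months and alcohol at 4 months, and only the first neighbors, the controls of 2 and 1 months, differed beyond their spread. The diets of one month differed beyond it at 2 months for Nr5a2, by -0.39 (pooled SD 0.17), and for the brighter Cebpa probe, by -0.375 (pooled SD 0.370). The pooled SD is that of the single levels and not of their difference. The ratio of this Cebpa probe at 2 months, -0.37 ± 0.73, was within the spread of its arrays, where the sign followed the dye.

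For 4 of the other members, by their brightest probes, the month separated the pools more than the diet. Hnf4a was at 1.21 ± 0.01 and 1.39 ± 0.03 in the control and alcohol pools of 1 month, and between 2.50 and 2.68 in the 4 later pools, which lie on the other slide and whose neighbors did not differ beyond their spread. Onecut1 was, in the order control and alcohol, at 3.22 ± 0.23 and 3.20 ± 0.18 in month 1, 4.96 ± 0.14 and 5.04 ± 0.41 in month 2, and 4.40 ± 0.37 and 4.33 ± 0.41 in month 4, and the 2 diets of a month did not differ beyond their spread. By the dimmer Onecut1 probe they did so at 1 month, with 1.86 ± 0.01 in the control pool and 2.15 ± 0.05 in the alcohol pool. The Onecut1 difference between the control pools of 4 and 2 months, -0.56, was -0.0019 after quantile normalization across channels. Gata4 was at 1.51 ± 0.13 and 1.54 ± 0.18, then 2.07 ± 0.17 and 2.06 ± 0.21, then 2.36 ± 0.09 and 2.27 ± 0.10, again with no difference between the diets beyond the spread. The second Gata4 probe went the other way over the months, at -1.26 ± 0.26 and -1.24 ± 0.12, then -2.72 ± 0.34 and -2.70 ± 0.36, then -2.57 ± 0.17 and -2.33 ± 0.99. Foxa3 was at -1.07 ± 0.04 and -1.15 ± 0.12, then -1.15 ± 0.03 and -1.28 ± 0.27, then -1.83 ± 0.12 and -1.96 ± 0.02, and both pools of 4 months were lower than the other 4 beyond the spread between neighbors. Its diets of 4 months also differed beyond the spread, by -0.13 (pooled SD 0.09).

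The remaining members had few steps between pools by their brightest probes. Foxa1 was at -0.70 ± 0.05, -0.20 ± 0.09 and -0.56 ± 0.06 in the control pools and at -0.91 ± 0.01, -0.35 ± 0.41 and -0.72 ± 0.69 in the alcohol pools. From high to low the pools were control at 2 months, alcohol at 2 months, control at 4 months, control at 1 month, alcohol at 4 months and alcohol at 1 month, with a step beyond the spread only between the controls of 4 and 1 months. Prox1 was at 1.72 ± 0.03, 2.21 ± 0.02 and 1.66 ± 0.37 with control diet and at 1.90 ± 0.09, 2.09 ± 0.26 and 1.86 ± 0.09 with alcohol. Its order was control and alcohol at 2 months, alcohol at 1 and 4 months, and control at 1 and 4 months, with a step beyond the spread only between alcohol at 4 months and control at 1 month. Between the diets of 1 month the level differed beyond the spread for Foxa1, by -0.20 (pooled SD 0.04), and for Prox1, by 0.19 (pooled SD 0.07).

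The genes whose levels over the 6 pools were most like those of Foxa2, by Pearson's r among 27897 other probes well above background throughout, were Vcl (r = 0.994), Mtcp1 (0.990), Tuft1 (0.987), D630039A03Rik (0.986) and Wdr11 (0.984). Vcl encodes vinculin, a protein of cell adhesion sites. Its log2 ratio was 0.16, -0.21 and -0.52 at 1, 2 and 4 months, that of Mtcp1 was 0.21, -0.32 and -0.72, and that of Tuft1 was 0.03, -0.34 and -0.77. The 3 genes share with Foxa2 the lower alcohol pools at the later months. The 6 pools share arrays in pairs, and these values describe likeness only.

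Among 30 further liver transcription factors, the leading probes had medians of -0.01, 0.04 and 0.00 on the log2 scale in months 1, 2 and 4, and limma called 0 of 30 for the mean and 0 for the slope. At an unadjusted p under 0.05 limma gave 5 for the mean and 4 for the slope, against 7.98% and 7.42% of all probes. At 2-fold, 1 was called as raised at 4 months, where 0.662% of all probes were called, and none as lowered at any month. The raised gene was Cebpd, the C/EBP factor of the acute phase, named for this call after its values were seen. Cebpd had log2 ratios of -0.12 ± 0.06, 0.77 ± 0.24 and 1.04 ± 0.07 (SD, n = 2 arrays), so that it lay above 0 on all 4 later arrays, as Cebpb did. Among the genes of this list with the same sign on all 6 arrays, Xbp1, the factor of the unfolded protein response, averaged -0.41 over the months and Hhex, an early liver homeobox factor, -0.24, with limma adjusted p of 0.601 and 0.620.

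Partner receptors and cofactors were also near 0, with medians of -0.01, 0.01 and 0.03 over 15 genes and 0 called at 2-fold at any month. Only Prkaa2, a subunit of the energy sensor AMPK, kept one sign on all 6 arrays, at an average of -0.23 with a limma adjusted p of 0.620. The 9 factors of growth hormone and sex-dependent liver expression had medians of 0.02, 0.00 and 0.06, with 1 called as lowered at 1 month. That gene was Bcl6, a repressor that growth hormone pattern controls, at -1.21 ± 0.14 at 1 month and -0.22 and 0.03 later. Of 14 clock and PAR bZIP factors, Dbp averaged -0.69, Nr1d1 -0.38 and Nr1d2 -0.30, all below 0 on all 6 arrays and each with a limma adjusted p of 0.620, while the list's medians were -0.06, -0.02 and 0.00. At 2-fold, 1 gene of the list was called, Dbp as lowered at 2 months with a log2 ratio of -1.001. Over all probes 0.224% and 0.311% were called at 1 and 2 months. One sign on all 6 arrays was kept by 4.29% of the probes well above background throughout.

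Known targets of the factors did not share 1 direction. The 20 HNF4A targets measured had medians of -0.11, -0.17 and -0.06 log2 in months 1, 2 and 4, with 1 called as lowered at 4 months, Cyp8b1, the sterol 12-alpha-hydroxylase of bile acid synthesis, at -1.10 ± 1.12 (SD, n = 2 arrays), a value within the spread of its arrays. At 2-fold, 0.295% of all probes were called as lowered at 4 months. Limma called 0 of the 20 for the mean and 0 for the slope. At an unadjusted p under 0.05 limma gave 4 and 2, against 7.98% and 7.42% of all probes. Apoc2, an apolipoprotein that activates lipoprotein lipase, was below 0 on all 6 arrays with an average of -0.32, and Cyp2d9, a male-predominant P450, with -0.26. The 14 NR5A2 targets measured had medians of 0.06, 0.03 and -0.09. At 2-fold 1 was raised and 1 lowered at 4 months, where 0.662% of all probes were called. Limma called 0 for the mean or the slope, with 1 and 3 at an unadjusted p under 0.05, against 7.98% and 7.42%.

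The 18 C/EBP targets had medians of 0.03, -0.01 and 0.15, with 1 raised at 2-fold at 2 months and 1 at 4 months. Over all probes 0.311% and 0.662% were called at 2-fold at 2 and 4 months. Limma called 0 for the mean and 0 for the slope, with 5 and 4 at an unadjusted p under 0.05, against 7.98% and 7.42% of all probes. Of the 18 targets, 4 kept one sign on all 6 arrays, against 4.29% of the probes well above background throughout. This list too was written with earlier results known, so the count is not read as a result about the targets. Lcn2, the acute phase protein lipocalin 2, had log2 ratios of 0.36, 1.28 and 1.04. Tat, the tyrosine aminotransferase induced in fasting, averaged 0.52, Orm2, an acute phase glycoprotein, 0.22 and Gys2, the liver glycogen synthase, -0.45. The serum amyloid genes, which CEBPB is known to induce in the acute phase, were not higher at the later months, with Saa2 at 0.08, -0.32 and -0.77 and Saa3 at 0.07, -0.50 and -0.97.

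The 15 FOXA and ONECUT1 targets had medians of 0.28, 0.07 and 0.00, and held the largest single log2 ratios of the target lists. The list was written with earlier results of these data known. Neither this rank nor the list's counts are therefore read as a result about the targets. Igfbp1, a classic FOXA target and fasting gene, was at -0.23 ± 0.23, 1.97 ± 0.36 and 2.74 ± 0.22 (SD, n = 2 arrays), within the spread of its arrays at 1 month and above 0 on all 4 later arrays. The sex-dependent genes Hsd3b5 at -2.93, -2.04 and -4.83, Cyp2b9 at 2.73, 1.11 and 1.87 and Cyp2c29 at 0.63, 0.81 and 2.49 kept one sign on all 6 arrays. At 2-fold the list had 1 raised and 2 lowered genes in month 1. In month 2 it had 2 of each, and in month 4 it had 3 raised genes and 1 lowered gene. Over all probes 0.224%, 0.311% and 0.662% were called in months 1, 2 and 4. Limma called 0 for the mean and 0 for the slope, with 7 and 5 at an unadjusted p under 0.05, against 7.98% and 7.42% of all probes.

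**Figure D4:**
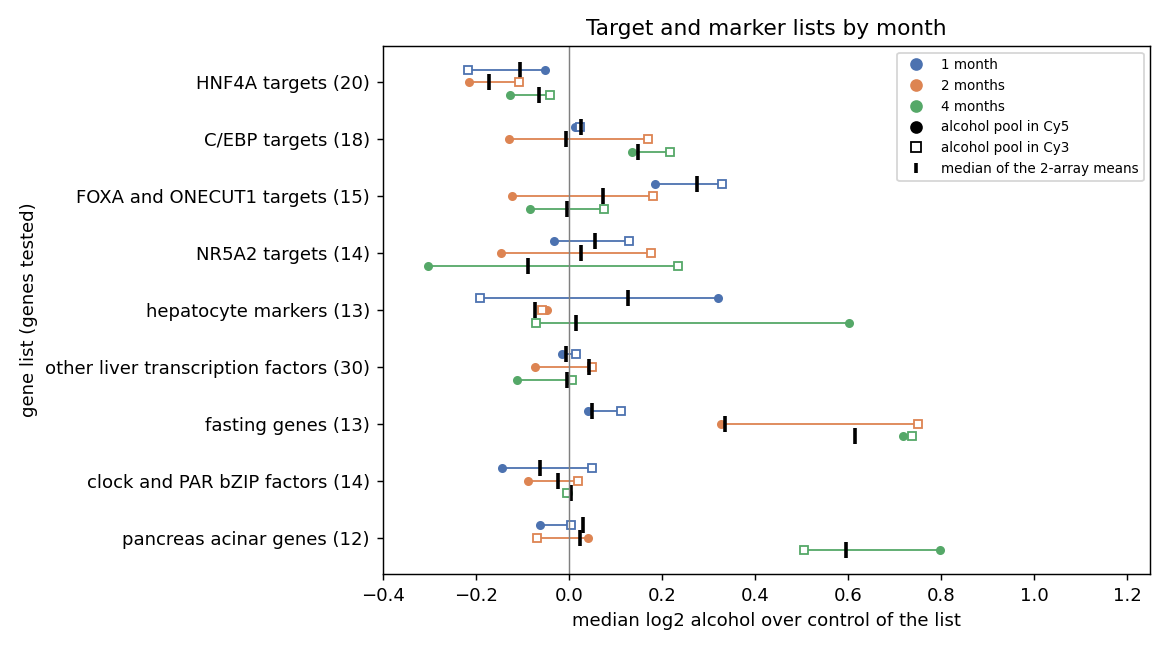
Median log2 alcohol over control (horizontal axis) of the target and marker lists (vertical axis, with the number of genes tested) by month (color), with filled circles for arrays with alcohol in Cy5, open squares for arrays with it in Cy3 and black bars for the median of the 2-array means. The black bars of the 4 target lists lie between -0.17 and 0.28, while that of the fasting list is at 0.62 and that of the pancreas acinar list at 0.59 at 4 months.

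All 13 hepatocyte genes measured were well above background in every channel. So were 27898 of the 41174 probes, and the flag therefore does not test the tissue label. The median log2 ratios of the 13 genes were 0.13, -0.07 and 0.02. Of the lists for other cells, the pancreas acinar genes stood away from 0 at 4 months. The 12 measured had medians of 0.03, 0.02 and 0.59. Against 0.662% of all probes called at 4 months, Cela2a, Cpb1 and Pnliprp1 were called as raised. These 3 were the dim ones, well above background in 5, 11 and 9 of the 12 channels, while the other 9 genes were so in every channel. Their summed level, which adds the signals of the genes divided by the 75th percentile of the channel, was 17.7, 29.7 and 31.7 in the alcohol pools and 17.7, 29.6 and 26.3 in the control pools of 1, 2 and 4 months. FOXA2, NR5A2, PROX1 and GATA4 are also known from pancreas, and the part of such tissue in their values was not tested. Cholangiocyte, endothelial, stellate and Kupffer or myeloid lists had medians between -0.04 and 0.07 at 2 and 4 months, and at 1 month the endothelial list stood at 0.31.

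Fasting genes stood above 0 at the same months as Cebpb. The medians of 13 fasting genes were 0.05, 0.34 and 0.62. At 2-fold 1 was called as raised and 1 as lowered at 1 month, 4 as raised at 2 months and 2 at 4 months. Over all probes 0.224%, 0.311% and 0.662% were called at 1, 2 and 4 months. Summed levels in months 1, 2 and 4 were 118.6, 190.5 and 180.4 with alcohol and 101.6, 128.0 and 113.2 with control diet. The sum was thus higher with alcohol at 1 month too. Of 11 immediate early genes, 1 was called as raised at 2 months and 2 at 4 months. They were Jun, whose probe was well above background in 4 of the 12 channels so that no ratio is given, and Dusp1, at -0.43, 0.63 and 1.27, and the median of the list was -0.01, 0.06 and 0.04. The part of feeding state or handling in the Foxa2 and Cebpb values was not tested.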

How the data were processed

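The authors deposited the output of Agilent Feature Extraction 9.1.1.1 for 6 two-color arrays (mouse 4x44K design), which holds for every spot the background-subtracted, dye-normalized intensity in Cy5 and Cy3, their log10 ratio and a modeled error of it. They also deposited a table of log10 ratios already turned to alcohol over control, within 0.02 log2 of the scanner ratios for about 99.5% of probes on every array and used as an alternative. Flags given as a score of 0 or 1 in the files deposited by the authors marked spots well above background, saturated or outlying.

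Each log10 ratio was turned to alcohol over control, put on the log2 scale, averaged over the spots of a probe and then over the 2 arrays of a month, as in the methods of the study. The SD of the 2 arrays is technical. The package limma 3.58.1 (R 4.3.3) was fitted to the monthly ratios (mean against 0, and slope on the log2 of the month) over 37922 probes, with Benjamini-Hochberg adjustment over all of them, after a check on simulated data. The labels do not say that the months came from separate litters or cohorts, so p-values measure only the spread between these samples. Levels are log2 signals minus the 75th percentile of the channel. Gene names are those of the array, and 16 of the 18 member probes were also matched by RefSeq accession, which added 0 probes. The number of arrays limits the precision. Between 73.3% and 90.3% of spots were well above background.

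The members and gene lists were chosen with earlier results of these data known. Named are all 10 members with all probes, the 2 to 4 genes per list that had one sign on all 6 arrays, a signal above background in every channel and the most extreme mean ratio, and the 5 genes most like the member with the largest mean ratio. Other genes named within a list were chosen after their values were seen. No probe of that symbol was found for Ccl21a, Irs2, Serpina1a, Tf, Ces1, Amy2a5, Prss1 and Try4. Pancreas endocrine and fetal liver lists had medians between -0.01 and 0.05 at every month. Alternatives were other background correction, filters, centring, thresholds, probe rules, level scalings, single arrays of a pair, the slide as a block and leaving out each month.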

Additional observations from a re-analysis of the deposited data

Results flagged for a closer look

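In 3 member probes both arrays of one month lay on one side of 0 and both arrays of another month on the other side. The share of all probes that meet this rule is not given, so the count is not read as a result about the members. The difference between the months was not tested, since each month has 1 pair of pools, and the slide changed with the month in every one of these comparisons. Foxa2 differed by -0.68 log2 between 2 months and 1 month and by -1.22 between 4 months and 1 month. The dimmer Cebpa probe, A_52_P168567, differed by -0.50 between 2 months and 1 month and by -0.46 between 4 months and 1 month. The dimmer Onecut1 probe, A_51_P368894, differed by -0.39 between 4 months and 1 month.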

How the results depend on the processing

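The count of members called by limma for the mean over the months was 0 under all 14 alternatives, and that at 2-fold was 0 at 1 and 2 months under all 10. For the slope, normexp with loess called 1 member, Foxa2, among 50 of 37922 probes, and the other 10 alternatives called 0. At 4 months the call of Foxa2 at 2-fold stood on the threshold: the count was 0 with normexp and loess, with the deposited table, with the error-weighted mean, on the array with alcohol in Cy3 alone and when each of the 2 arrays had to reach 2-fold, while the array with Cy5-labeled alcohol RNA called 2, Foxa2 and Cebpa. The Foxa2 log2 ratio at 4 months was -0.995 with normexp, -0.998 in the table, -0.999 as the weighted mean, -1.16 on the Cy5 array and -0.86 on the Cy3 array. The median of the members moved to 0.10 at 1 month and 0.12 at 4 months on the arrays with alcohol in Cy3 alone.

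The mean over the months stayed below 0 under every alternative for Foxa2 (-0.74 to -0.13), Nr5a2 (-0.35 to -0.10) and Foxa3 (-0.19 to -0.04). It reversed for others. With the array with alcohol in Cy5 alone Hnf4a was at -0.029, Cebpb at -0.00063 and Prox1 at -0.072, and with the array with alcohol in Cy3 alone Foxa1 was at 0.050, Cebpa at 0.38, with a slope of 0.11, and Onecut1 at -0.26. Gata4 was at 0.037 as the mean of its probes. Leaving out each month in turn gave -0.042 to 0.012 for Gata4, which reversed without month 4, and -0.045 to 0.037 for Onecut1, which reversed without month 2. Onecut1 was at -0.0039 with the slide as a block. The single-array alternatives hold 1 dye orientation only; the cause of the other reversals was not tested. Matching probes by RefSeq accession added none and was not run as a fit, and filters on dim probes left all members in. No paired analysis was possible because each ratio is already the paired difference of the 2 pools of a month on 1 array, and the replicate numbers name only the dye orientation.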
